A study of Mus musculus with 14 samples.

Results

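Extraembryonic endoderm stem cells (XEN cells) that had received STM2457, an inhibitor of the RNA methyltransferase METTL3, were compared with XEN cells that had received its solvent DMSO. The comparison took in the XEN libraries alone, 6 of the 14 libraries of the study, and all genes of the deposited count table. The STM2457 group (3 libraries) had been exposed to 50 µM of the inhibitor for 12 h, and the DMSO group (3 libraries) is labelled as its control. Both groups are labelled as one wild-type XEN line from a hybrid of Mus molossinus and Mus musculus, grown in DMEM with serum, so the result describes a single line. The labels do not say whether the libraries of a group came from separate cultures. In the main test the p-values measure how the differences between STM2457 and DMSO libraries of equal replicate number vary. That spread may therefore be technical. The other libraries of the study are from trophoblast stem cells (TSC) and from epiblast stem cells (EpiSC). Each of these lines also has a DMSO group and an STM2457 group, the latter at 50 µM for 12 h. They are used here only in a comparison between lines near the end and in alternative fits of all 14 libraries. The study's title names X-chromosome inactivation and the balance between X and autosomes as its subject.

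METTL3 is the catalytic subunit of the complex that places N6-methyladenosine (m6A) on messenger RNA as it is made. METTL14 holds the RNA, WTAP, VIRMA, ZC3H13, CBLL1, RBM15 and RBM15B direct the complex to its targets, the YTH proteins bind the mark, and FTO and ALKBH5 can remove it. The mark is known above all for shortening the life of the RNAs that carry it, and exon junctions are known to keep m6A away from nearby sequence, so RNAs with long stretches free of junctions tend to carry more of it. XEN cells are lines derived from the primitive endoderm of the blastocyst. They express GATA4, GATA6 and SOX17 and make a basement membrane rich in laminin and type IV collagen, like parietal endoderm.

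Total RNA was sequenced from a stranded library kit and deposited as whole-number counts per gene. The 6 libraries held 6826496 to 10024628 counts, and 19271 to 20603 genes had at least 1 count. Mitochondrial ribosomal RNA took 12.02% to 16.01% of the counts. Libraries with the same replicate number deviated together from their group means across 13118 genes (correlations of 0.416, 0.578 and 0.581). Libraries with different numbers had correlations of -0.458 to -0.063. Deviations from a group mean cancel out within the group, so positive values for equal numbers force negative ones on balance among the rest. The first principal component, 42.7% of the variance, set replicate 2 of both groups apart from replicates 1 and 3. The second, 23.8%, placed the STM2457 library above the DMSO library in each of the 3 pairs. Equal replicate numbers in the labels were treated as pairs.

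The endoderm label fitted the markers. The 11 primitive endoderm markers summed to 3090 to 4010 CPM (counts scaled to the library total) in STM2457 libraries and 2830 to 3920 CPM in DMSO libraries. The 10 parietal endoderm markers summed to 66100 to 78200 CPM in STM2457 libraries and 63200 to 72600 CPM in DMSO libraries. Visceral endoderm markers (9) summed to 108 to 137 CPM in STM2457 libraries and 123 to 159 CPM in DMSO libraries. These sums lay below those of the other endoderm sets and above those of the sets that follow. The 9 trophoblast markers summed to 0.811 to 1.96 CPM in STM2457 libraries and 0.703 to 1.16 CPM in DMSO libraries, with 6 of them (Esrrb, Tfap2c, Prl3d1, Tpbpa, Gcm1 and Hand1) at 0 counts in every library. The 8 epiblast markers summed to 0.58 to 1.58 CPM in STM2457 libraries and 0.563 to 1.01 CPM in DMSO libraries, with 4 at 0. The 10 fibroblast markers summed to 4.64 to 7.84 CPM in STM2457 libraries and 4.4 to 7.95 CPM in DMSO libraries, nearly all of it Pdgfrb, with Col3a1, Lum, Thy1 and Prrx1 at 0.

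Mettl3 itself, the target of the inhibitor, had 43.1, 37 and 44.6 CPM in STM2457 libraries 1, 2 and 3, against 43.7, 41.5 and 50.7 CPM in DMSO libraries 1, 2 and 3. Every later list of values follows the same order of libraries. Its level was lower in each pair but the groups overlapped, and the log2 fold change of -0.12 ± 0.10 (SE) did not pass the test (adjusted p = 0.488). An inhibitor of the enzyme need not change its RNA, so this value does not check the labels.

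Of 13118 genes with enough counts to test, 1499 (11.4%) differed between STM2457 and DMSO libraries at a Benjamini-Hochberg adjusted p under 0.05 in edgeR's quasi-likelihood test with the pairs as a block. These genes are said below to have risen or fallen. With STM2457, 1006 genes rose (7.67%) and 493 fell (3.76%), so that 67.1% of the changed genes were higher. Changes were mostly modest. The median size was 0.496 on the log2 scale, 93 genes rose and 27 fell by at least 2-fold, and 522 changed by at least 1.5-fold. Of the 1499 genes, 1498 moved the same way in all 3 pairs, and 46.5% of all tested genes did so. In 1067 of the 1499 the groups did not overlap at all, as in 2432 (18.5%) of all tested genes. The test used these same pairs and values, so the counts for called genes follow largely from the selection. Scaling to ribosomal protein genes raised the share of higher genes to 78.9%, with 225 higher and 60 lower.

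The count depended on the block by replicate number. Without it 25 genes were called, 24 higher and 1 lower. They include Nxt1, Col20a1, Mrpl43, Mrps2, Plekho1, Pop7, Rpp25l and, as the gene that fell, Rb1. The third pair mattered too: 236 genes were called without it, against 1252 without the first pair and 1525 without the second. Of the 152 genes named by rule that changed, 47 were called in every alternative that kept the block, and 104 were lost when the third pair was left out. Genes described first in each paragraph below are mostly among those 47.

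**Figure D1:**
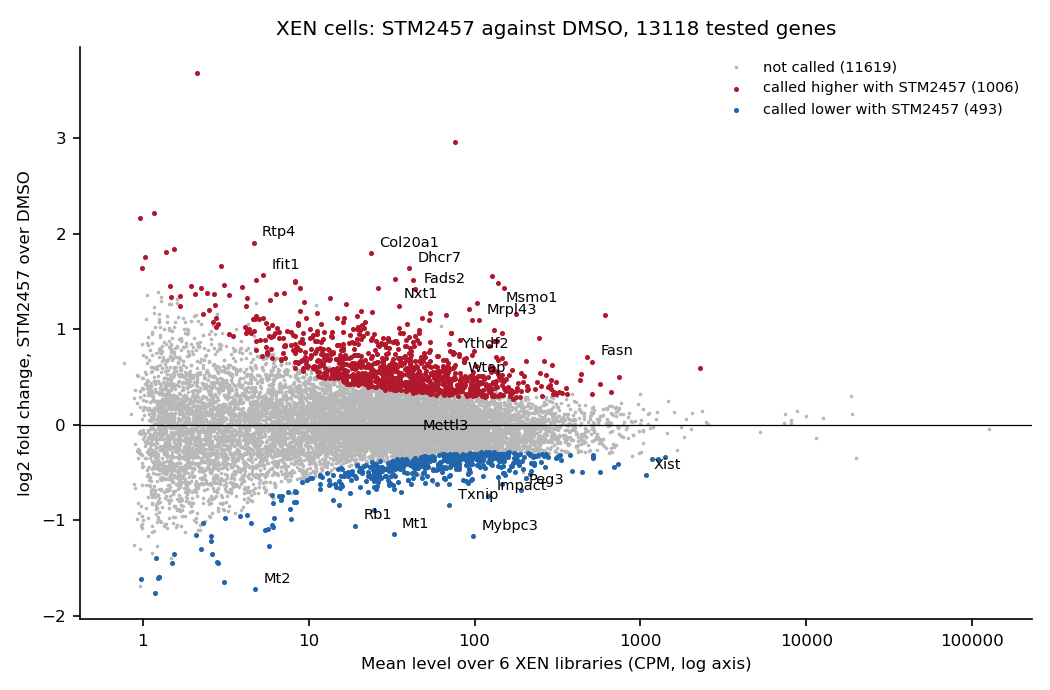
Log2 fold change of STM2457 over DMSO (vertical axis) against mean level over the 6 XEN libraries in CPM (horizontal log axis), 1 point per tested gene. Red points are the 1006 genes that rose, blue points the 493 that fell and grey points the rest; Msmo1, Dhcr7 and Nxt1 stand among the largest rises, and Mt2, Mybpc3, Mt1 and Rb1 among the falls.

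Genes of cholesterol synthesis rose together. Of 21 tested members of the pathway, 18 rose and none fell (85.7%, beside 11.4% called over all tested genes). All 21 had positive values, and the median log2 fold change was 1.14, beside -0.00389 over all tested genes. At an unadjusted p under 0.05, 20 members were higher and none lower, and DESeq2 called 17. Pair medians were 1.65, 0.553 and 1.10, so the rise was largest in the first pair and smallest in the second. In bulk RNA, a change in the share of cells that use a pathway and a change in RNA per cell cannot be told apart. Without the third pair 13 members were called, and without the block none were, although 19 then had an unadjusted p under 0.05.

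Enzymes that turn lanosterol into cholesterol rose. Msmo1, which removes methyl groups from the sterol ring, had 336, 100.1 and 181 CPM with STM2457, against 101, 43.7 and 64.7 CPM with DMSO. Each STM2457 library stood above its own DMSO partner, but the lowest STM2457 library lay just under the highest DMSO library. Its log2 fold change was 1.48 ± 0.11 (adjusted p = 2.03e-06). Dhcr7, which makes cholesterol in the last step of one branch, had 99.2, 37.9 and 48.9 CPM with STM2457 and 21.2, 18.6 and 16.4 CPM with DMSO, with no overlap. Its log2 fold change was the largest of the pathway at 1.64 ± 0.19 (adjusted p = 0.000592). The X-linked enzymes Nsdhl (1.43 ± 0.17) and Ebp (1.17 ± 0.11) rose as well, as did Cyp51 (1.43), Tm7sf2 (1.14), Hsd17b7 (0.96) and Sc5d (0.89). Hsd17b7 lost its call without the third pair (adjusted p = 0.0871).

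Upstream, 7 of 9 enzymes between acetyl-CoA and farnesyl diphosphate rose, among them Mvd (1.51 ± 0.26), Fdps (1.51 ± 0.25), Mvk (1.00 ± 0.14) and Pmvk (0.88 ± 0.13). Fdps is a low gene here, at 12.2, 3.11 and 6.38 CPM with STM2457 and 3.38, 1.16 and 2.79 CPM with DMSO. Hmgcs1, which makes HMG-CoA, had 427, 111 and 221 CPM with STM2457 and 121, 78.7 and 103 CPM with DMSO, overlapping between the groups (1.16 ± 0.24, adjusted p = 0.0408). Of the first steps of the sterol branch, squalene synthase (Fdft1, 1.28 ± 0.23) and squalene epoxidase (Sqle, 0.88 ± 0.14) rose. Acat2, Hmgcs1 and Fdft1 were not called without the third pair, with adjusted p-values of 0.0862, 0.106 and 0.0704. Of the 3 members outside the calls, Idi1 had 1.25 ± 0.37 (adjusted p = 0.0749), Lss 1.04 ± 0.31 (0.111) and Ggps1, which serves protein prenylation, 0.19 ± 0.11 (0.301).

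Genes of sterol transport and of its control were mixed. Mylip, a ubiquitin ligase, fell at -0.62 ± 0.16, and the cholesterol exporter Abca1 fell at -0.37 ± 0.10. Both were lost without the third pair (adjusted p = 0.341 and 0.228), and Abca1 also without the first (0.154). Insig1, a retention factor of the SREBP transcription factors and one of their targets, rose at 0.71 ± 0.11 (adjusted p = 0.00149, or 0.0721 without the third pair). The SREBP genes themselves did not pass the test. Srebf2 had 193, 127 and 133 CPM with STM2457 and 113, 131 and 108 CPM with DMSO (0.35 ± 0.13, adjusted p = 0.107), and Srebf1 had 0.06 ± 0.09 (0.72). Scap, Mbtps1 and Mbtps2, which carry and cut SREBP, had values of -0.02, 0.22 and 0.05, none called.

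**Figure D2:**
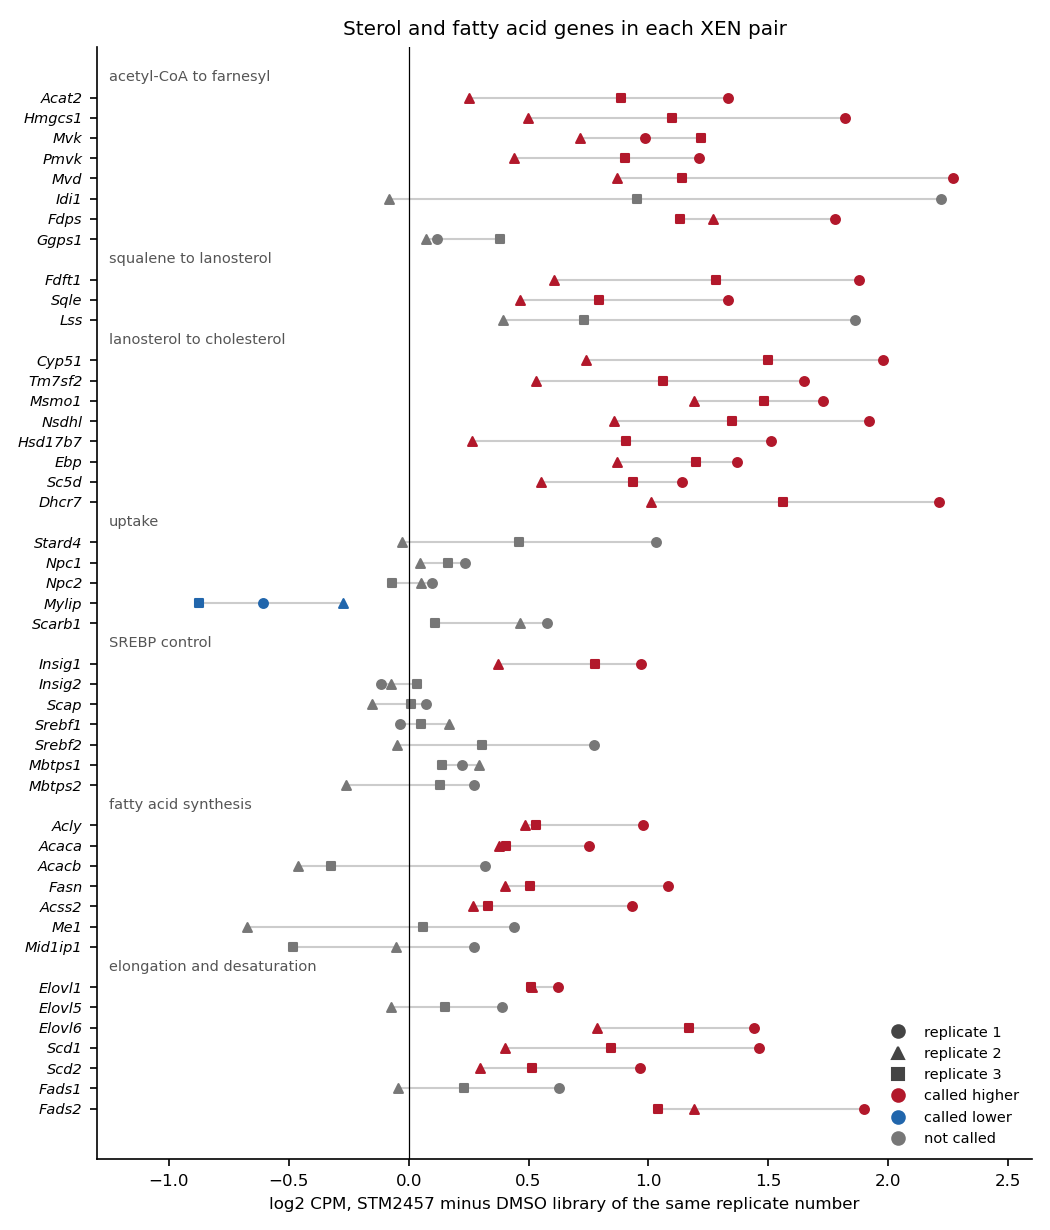
Difference in log2 CPM between the STM2457 and the DMSO library of the same replicate number (horizontal axis) for tested genes of sterol synthesis, sterol uptake, SREBP control and fatty acid synthesis (rows, grouped by role); circles, triangles and squares are pairs 1, 2 and 3. Red rows rose, blue rows fell and grey rows were not called; in the sterol synthesis rows the circle of pair 1 lies furthest right in most, and Msmo1, Fdps and Ebp lie right of 0 in all 3 pairs.

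Promoters of this pathway were read for the sterol regulatory element TCACNCCAC on both strands, in the 250 bases before the gene start in RefSeq (build GRCm38.p6). Hmgcs1 is shown because it held the only match. The window lies at chr13:119690101-119690350 on the plus strand, and capitals mark the match, which starts 137 bases before the gene start.
Hmgcs1: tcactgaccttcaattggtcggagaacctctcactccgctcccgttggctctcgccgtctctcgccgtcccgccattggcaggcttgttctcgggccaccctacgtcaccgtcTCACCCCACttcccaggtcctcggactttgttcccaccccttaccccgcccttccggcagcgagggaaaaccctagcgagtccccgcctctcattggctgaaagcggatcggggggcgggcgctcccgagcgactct
Of the 18 sterol genes that rose, 13 had a window and 1 held the motif, beside 1.22% of 27025 genes with a window. The match describes these letters only.

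Genes of fatty acid synthesis rose as well. Of 14 tested members 9 rose and none fell (64.3%, beside 11.4% called over all tested genes). The median log2 fold change was 0.538, with pair medians of 0.842, 0.336 and 0.456. DESeq2 called 7, and 3 were called without the third pair. These 3 were Fads2, a desaturase of polyunsaturated fatty acids, Elovl6, which lengthens palmitate, and Acly, which supplies cytosolic acetyl-CoA. Fads2 had 121, 33.2 and 42.1 CPM with STM2457, against 32.2, 14.5 and 20.3 CPM with DMSO (1.42 ± 0.15, adjusted p = 0.000179). Every STM2457 value exceeded every DMSO value. Elovl6 had 130.1, 57.5 and 93.9 CPM with STM2457 and 47.7, 33.3 and 41.7 CPM with DMSO, also apart (1.15 ± 0.12, adjusted p = 6.04e-05). Acly rose at 0.67 ± 0.11 (adjusted p = 0.00145). Fatty acid synthase (Fasn) had 987, 427 and 498 CPM with STM2457 and 468, 324 and 351 CPM with DMSO, overlapping (0.66 ± 0.12, adjusted p = 0.0043, or 0.0592 without the third pair). Scd1, Scd2, Acaca, Acss2 and Elovl1 rose by 0.91, 0.59, 0.52, 0.52 and 0.55 on the log2 scale. Fads1, Elovl5, Me1, Acacb and Mid1ip1 were not called (-0.21 to 0.28).

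Interferon-response genes, which encode antiviral proteins and their regulators, rose too. Of 67 members 46 could be tested. Of those 46, 19 rose and none fell (41.3%, beside 11.4% called over all tested genes), and 44 had positive values. The other members had too few counts to test, so the 46 are not the whole list. The median log2 fold change was 0.527, and pair medians were close to each other at 0.564, 0.511 and 0.525. The calls depended on the test and on the third pair: DESeq2 called 9, scaling to ribosomal protein genes 7 and the fit without that pair 6. At an unadjusted p under 0.05, 28 members were higher and none lower, and 17 were higher without the block, where no member was called.

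Those 6 were Stat2, Ifit1, Rtp4, Oasl2, Trim21 and Parp14. Stat2, the transcription factor that carries type I interferon signals, had 47, 76.7 and 53.7 CPM with STM2457, against 21.9, 48.1 and 29.6 CPM with DMSO. Replicate 2 was high in both groups, so the groups overlapped slightly although every pair rose (0.86 ± 0.11, adjusted p = 0.000391). Ifit1, which binds viral RNA with a foreign cap, had 8.11, 7.96 and 7.77 CPM with STM2457 and 2.53, 3.04 and 2.47 CPM with DMSO, a low gene with narrow groups that lay apart (1.57 ± 0.23, adjusted p = 0.000804). Rtp4 had 8.21, 9.8 and 4.29 CPM with STM2457 and 1.55, 2.17 and 1.93 CPM with DMSO (1.91 ± 0.28, adjusted p = 0.00091), again apart. Oasl2 rose at 1.00 ± 0.14, Trim21, an antibody receptor of the cytosol, at 1.17 ± 0.18, and Parp14 at 0.76 ± 0.12. Among factors and sensors, Irf9 (0.45), Irf1 (0.52), Ddx58, which encodes the RNA sensor RIG-I (0.52), and the RNA editor Adar (0.42) rose, with adjusted p-values of 0.16 to 0.293 without the third pair. None of the 5 tested antigen presentation genes was called by edgeR or DESeq2, although 2 were higher at an unadjusted p under 0.05. Ifit3b rose by 2.16 on the log2 scale, with under 1 CPM in each DMSO library, and reads of it and its near copy Ifit3 may have been split by the counting.

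The promoters of Ifit1 and Stat2 are shown because both genes kept their call and both held the interferon-stimulated response element, searched as TTTC, any 2 bases and TTTC on both strands of the same RefSeq windows. Capitals mark the matches. The Ifit1 window, with 2 copies, lies at chr19:34640639-34640888 on the plus strand, and the Stat2 window, with 1 copy, at chr10:128270248-128270497 on the plus strand.
Ifit1: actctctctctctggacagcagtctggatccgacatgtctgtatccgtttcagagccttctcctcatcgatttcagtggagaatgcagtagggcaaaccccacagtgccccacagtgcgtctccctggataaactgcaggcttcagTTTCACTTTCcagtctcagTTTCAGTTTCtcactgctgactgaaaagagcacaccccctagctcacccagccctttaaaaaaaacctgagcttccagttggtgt
Stat2: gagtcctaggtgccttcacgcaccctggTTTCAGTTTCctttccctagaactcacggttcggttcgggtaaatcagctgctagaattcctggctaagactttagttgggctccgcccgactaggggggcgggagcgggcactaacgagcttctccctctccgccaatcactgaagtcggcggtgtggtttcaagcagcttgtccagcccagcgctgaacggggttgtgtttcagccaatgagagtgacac
Among list members, 5 of 15 that rose and had a window held the motif (33.3%), as did 7 of 20 tested members that were not called (35%). Over all genes with a window the share was 3.46%.

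Parts of the m6A machinery rose. Among the writer complex's 8 genes 5 rose and none fell (62.5%, beside 11.4% called over all tested genes). All 5 are regulatory subunits. Wtap had 109, 84.3 and 109 CPM with STM2457, against 66.2, 43.8 and 71.6 CPM with DMSO, without overlap (0.75 ± 0.10, adjusted p = 0.000398). Rbm15 (0.43 ± 0.09), Rbm15b (0.47 ± 0.10), Cbll1 (0.48 ± 0.11) and Virma (0.30 ± 0.09) rose less. Without the third pair Wtap remained called and these 4 did not, at adjusted p-values of 0.115 to 0.356; Wtap was also the only one called under scaling to ribosomal protein genes. Zc3h13 had 0.28 ± 0.09 (adjusted p = 0.0626), and the catalytic partner Mettl14 had 15.1, 15.3 and 15.1 CPM with STM2457 and 14.9, 14.5 and 15 CPM with DMSO (0.04 ± 0.14, adjusted p = 0.897).

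Of 17 readers and erasers 3 rose and 1 fell (23.5%, beside 11.4% called over all tested genes). Ythdf2, the cytoplasmic reader best known for sending marked RNAs to decay, had 88, 89.2 and 99.2 CPM with STM2457, against 56.1, 51.5 and 57.9 CPM with DMSO. The groups were far apart, and the log2 fold change was 0.74 ± 0.09 (adjusted p = 0.000322). Its paralog Ythdf1 rose at 0.52 ± 0.10 and the nuclear reader Ythdc1 at 0.31 ± 0.09, while Ythdf3 (0.09 ± 0.11) and Ythdc2 (-0.11 ± 0.11) were not called. Rbmx, an RNA-binding protein of the X chromosome, fell at -0.53 ± 0.13. Ythdf1, Ythdc1 and Rbmx lost their calls without the third pair (adjusted p = 0.105, 0.352 and 0.187). The erasers Fto (-0.04 ± 0.10) and Alkbh5 (0.05 ± 0.09) and the readers Igf2bp1, Igf2bp2 and Igf2bp3 (-0.19, 0.03 and -0.04) were not called by edgeR or DESeq2, nor did any of these 5 reach an unadjusted p under 0.05. Mettl16, a separate m6A enzyme that acts on U6 snRNA, rose at 0.37 ± 0.10 (adjusted p = 0.0256, or 0.246 without the third pair).

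**Figure D3:**
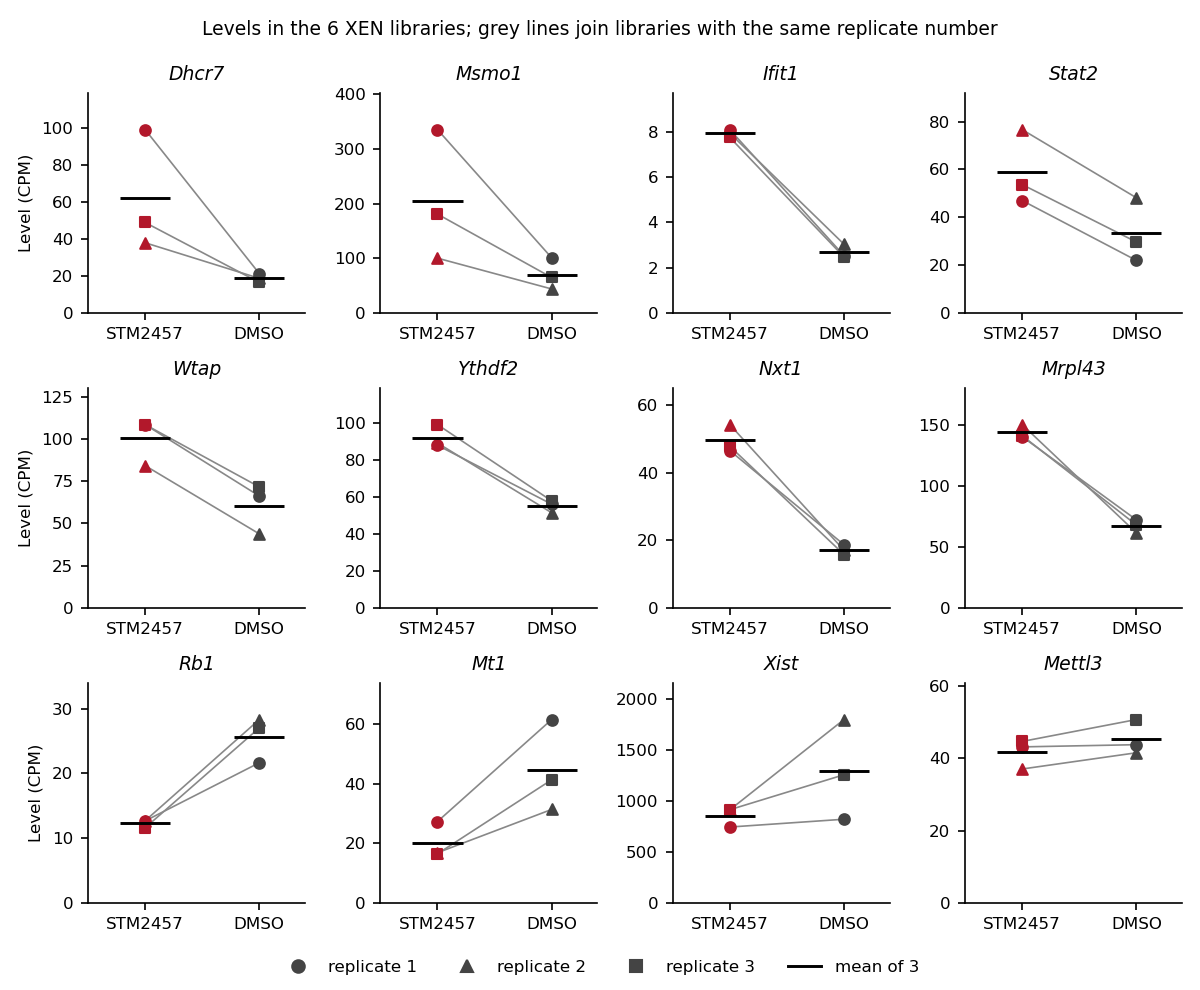
Level in CPM (vertical axes, each from 0) of 12 genes in the 3 STM2457 libraries (left, red) and the 3 DMSO libraries (right, grey); symbols give the replicate number, grey lines join pairs and black bars are group means. Ifit1, Ythdf2, Nxt1, Mrpl43, Wtap and Dhcr7 are higher with STM2457 with no overlap, Rb1 and Mt1 lower with no overlap, and Mettl3 overlaps.

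Some genes of the mitochondrial ribosome and of nucleolar RNA processing rose. Of 77 tested mitochondrial ribosomal protein genes, which are encoded in the nucleus, 15 rose and 1 fell (Mrps22). The share called was 20.8%, beside 11.4% over all tested genes. Their median was 0.177, with pair medians of -0.0119, 0.336 and 0.179. In the first pair 38 of the 77 had positive values. DESeq2 called 10, scaling to ribosomal protein genes 5 and the fit without the third pair 4. Mrpl43 had 141, 150.5 and 141 CPM with STM2457, against 72.3, 61.6 and 68.1 CPM with DMSO (1.10 ± 0.10, adjusted p = 1.21e-05). Mrps2 had 76.5, 63.6 and 58.2 CPM with STM2457 and 30.5, 29.5 and 30.9 CPM with DMSO (1.11 ± 0.11, adjusted p = 5.05e-05). Both lay wholly above DMSO. Of 27 assembly factors of the respiratory chain 5 rose and none fell (18.5%, beside the same 11.4%). They were led by Ndufaf1 of complex I (0.89 ± 0.13, adjusted p = 0.000788) and Sco2, a copper carrier of complex IV (0.87 ± 0.17, or adjusted p = 0.0908 without the third pair). Of the 76 nuclear-encoded subunits of that chain none rose and 1 fell (1.32%), Atp5f1 at -0.30 ± 0.09. DESeq2 called none of them, and 2 were higher and 9 lower at an unadjusted p under 0.05. Without the first pair 3 of the 76 were called, and without the second 13. The 80 cytosolic ribosomal protein genes gave no call in edgeR or DESeq2, with 1 lower at an unadjusted p under 0.05, but 7 were called without the first pair. Their pair medians went both ways, at -0.227, 0.296 and 0.0695.

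RNase P and MRP, which trim transfer and ribosomal RNA precursors, share protein subunits. Of these 3 of 10 tested rose and none fell (30%, beside 11.4% called over all tested genes). Pop7 had 20.7, 22.1 and 22.8 CPM with STM2457, against 11, 10.6 and 9.67 CPM with DMSO (1.08 ± 0.14, adjusted p = 0.000398). Rpp25l (1.12 ± 0.15) and Rpp38 (0.98 ± 0.17) rose too. Of 20 ribosome biogenesis genes 4 rose (20%), namely Polr1b, a subunit of RNA polymerase I (0.82 ± 0.12), Nop2 (0.66), Nop16 (0.54) and nucleolin (Ncl, 0.50). Polr1b remained called without the third pair and the other 3 did not (adjusted p = 0.0569, 0.154 and 0.178).

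In RNA export, Nxt1, the small partner of the export receptor NXF1, had 46.6, 54.3 and 47.9 CPM with STM2457, against 18.7, 17.1 and 15.8 CPM with DMSO. Its values were tight and far apart, with a log2 fold change of 1.53 ± 0.12 (adjusted p = 6.09e-06). The TREX components Ddx39b (-0.46 ± 0.10) and Thoc2 (-0.30 ± 0.09) fell, at adjusted p = 0.25 each without the third pair. The 14 genes of the CCR4-NOT deadenylase, which YTHDF2 recruits, gave no call in edgeR or DESeq2; 5 were lower and none higher at an unadjusted p under 0.05. Of 45 decay genes as a whole only the exosome subunit Exosc4 changed (2.22%, beside 11.4% called over all tested genes). Exosc4 had 0.57 ± 0.13, or adjusted p = 0.112 without the third pair, while 6 decay genes were called without the first pair.

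**Figure D4:**
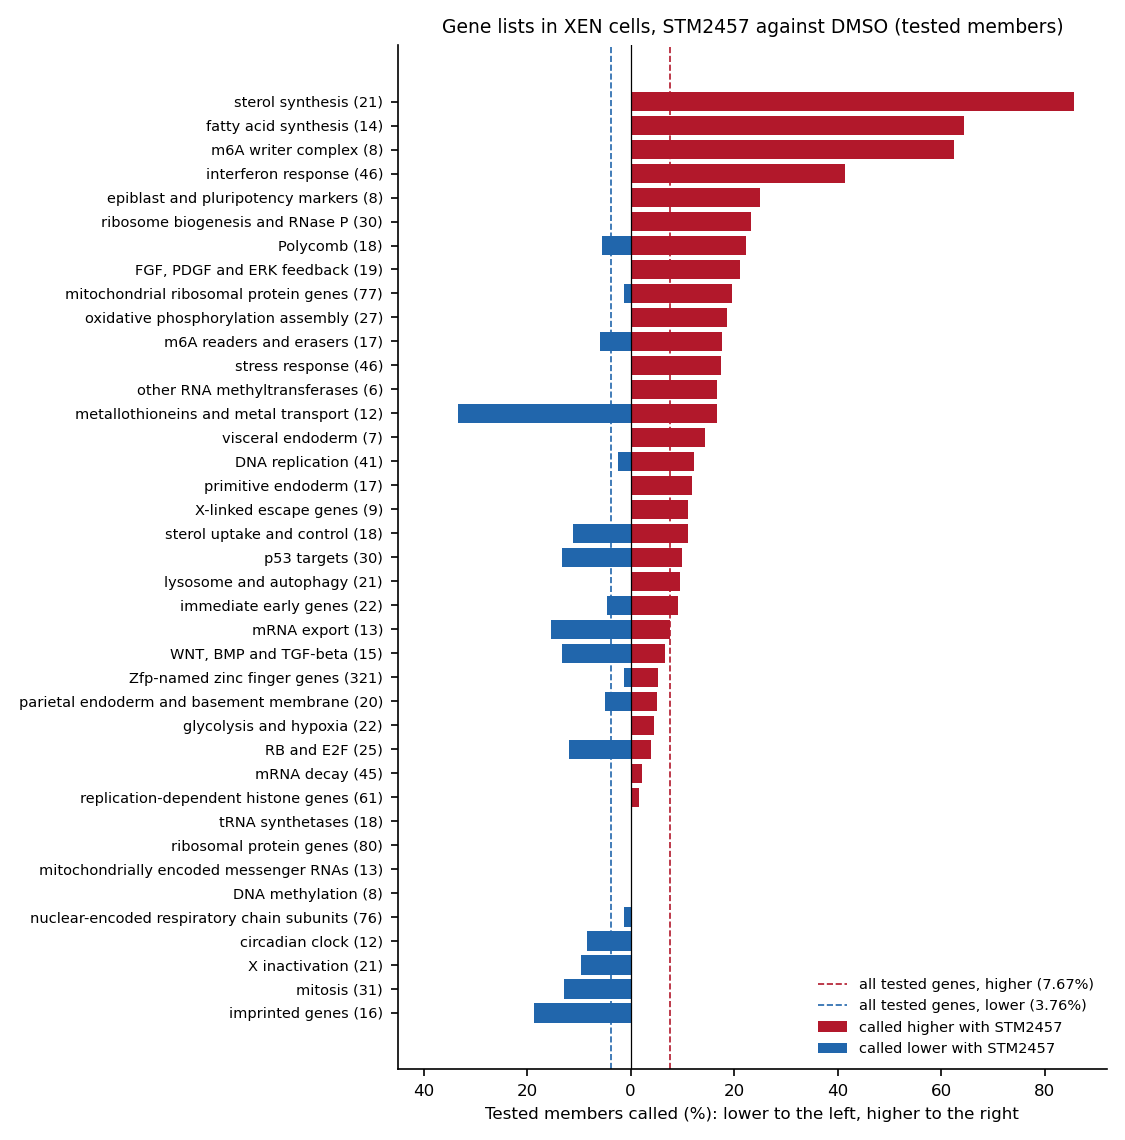
Share of tested members called higher (red, to the right) and lower (blue, to the left) with STM2457 for each gene list with at least 6 tested members (rows, number tested in brackets). Dashed lines mark the shares over all tested genes, 7.67% higher and 3.76% lower; sterol synthesis, fatty acid synthesis, the m6A writer complex and the interferon response reach furthest right.

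In the cell cycle, Rb1, the pocket protein that restrains E2F factors, had 12.7, 12.7 and 11.6 CPM with STM2457, against 21.7, 28.3 and 27.1 CPM with DMSO. The groups were apart and the log2 fold change was -1.05 ± 0.14 (adjusted p = 0.000398). Its relative Rbl1 (-0.56 ± 0.17) and cyclin D2 (Ccnd2, -0.42 ± 0.12) fell and the CDK inhibitor Cdkn2d rose (0.56 ± 0.14), but these 3 calls were lost without the third pair (adjusted p = 0.189, 0.262 and 0.0985). None of 10 E2F and DP genes was called by edgeR or DESeq2, with 1 higher at an unadjusted p under 0.05. Of 41 DNA replication genes 5 rose and 1 fell (Rfc4), 14.6% beside 11.4% called over all tested genes. The flap endonuclease Fen1 had 175, 184 and 183 CPM with STM2457 and 132, 103 and 101 CPM with DMSO (0.70 ± 0.10, adjusted p = 0.000769), and the chromatin assembly subunits Chaf1a and Chaf1b rose by 0.48 and 0.55. No replication gene was called without the third pair, where Fen1 had an adjusted p of 0.0529.

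Among mitotic genes none of 31 rose and 4 fell (12.9%). Over all tested genes 11.4% were called and 3.76% fell. Cdc20, Prc1, Ndc80 and Hmmr fell by 0.30 to 0.38 on the log2 scale. DESeq2 called none of the 31, and neither did the fit without the third pair or that without the first; 1 was higher and 8 lower at an unadjusted p under 0.05. Of 30 tested p53 targets 3 rose and 4 fell (23.3%, beside the same 11.4% called). Ccng1 (-0.49 ± 0.09), Plk2 (-0.49 ± 0.09) and Zmat3 (-0.49 ± 0.11) fell and the phosphatase Ppm1d, a feedback inhibitor of p53, rose (0.62 ± 0.10). All 7 calls were lost without the third pair.

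The metallothioneins, small proteins that bind zinc and copper, fell. Mt1 had 27.3, 16.8 and 16.5 CPM with STM2457, against 61.6, 31.4 and 41.4 CPM with DMSO, without overlap (-1.14 ± 0.12, adjusted p = 7.79e-05). Mt2 had 4.45, 0.231 and 2.2 CPM with STM2457 and 12.4, 2.89 and 6.44 CPM with DMSO (-1.72 ± 0.29, adjusted p = 0.0023), lower in each pair. The pair are close paralogs, and the counting may have split shared reads. Slc31a2, a copper transporter of the endosome, had 16.2, 17.4 and 18.6 CPM with STM2457 and 34, 28.5 and 34.3 CPM with DMSO (-0.89 ± 0.12, adjusted p = 0.000526). The zinc exporter Slc30a1 rose at 0.65 ± 0.12, the zinc importer Slc39a10 rose at 0.56 ± 0.09 and the copper pump Atp7a fell at -0.40 ± 0.11. Without the third pair, 3 of these 6 calls were made, those of Mt1, Mt2 and Slc31a2.

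Of 16 tested imprinted genes 3 fell and none rose (18.8%, beside 11.4% called over all tested genes). Without the second pair 5 were called, and without the third 1. Impact had 96.5, 72.9 and 101 CPM with STM2457, against 170.5, 119 and 165 CPM with DMSO, with no overlap (-0.75 ± 0.09, adjusted p = 0.000179). Peg3 had 168, 140.2 and 129.8 CPM with STM2457 and 220.4, 228 and 250 CPM with DMSO, also apart (-0.68 ± 0.10, adjusted p = 0.0012, or 0.0722 without the third pair). Grb10 fell at -0.54 ± 0.16 (adjusted p = 0.0399, or 0.331 without the third pair). Counts by parental allele were not analysed here. Of 12 clock genes Arntl alone changed (8.33%, beside 11.4% over all tested genes). Arntl fell at -0.61 ± 0.11 (or adjusted p = 0.0569 without the third pair), and 2 clock genes were called without the second pair.

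Among chromatin genes, Cbx2, a Polycomb subunit that binds methylated histone H3, had 16.9, 11.2 and 12.9 CPM with STM2457 and 7.6, 6.07 and 6.66 CPM with DMSO, with no overlap (1.00 ± 0.17, adjusted p = 0.002). Cbx8 (0.80 ± 0.15) and Ring1 (0.49 ± 0.13) rose and Aebp2 fell (-0.36 ± 0.10). Of these 4 calls, Cbx2 was the one made without the third pair. Of 321 tested zinc finger genes named Zfp, many of them repressors, 17 rose and 4 fell (6.54%, beside 11.4% over all tested genes) with a median of 0.0802, against 5 calls by DESeq2, 5 without the third pair and 1 under scaling to ribosomal protein genes. The 8 tested DNA methylation genes had no call in edgeR or DESeq2 and none at an unadjusted p under 0.05.

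Of 17 tested primitive endoderm genes 2 rose (11.8%), and of 20 parietal endoderm and basement membrane genes 1 rose and 1 fell (10%), beside 11.4% called over all tested genes. Sox17 had 393, 296 and 284 CPM with STM2457, against 336, 204 and 203 CPM with DMSO, overlapping (0.41 ± 0.10, adjusted p = 0.0125), and Sall4 rose at 0.39 ± 0.09; both were lost without the third pair (adjusted p = 0.262 and 0.269). The other 15 tested members were not called. None of 11 laminin and type IV collagen genes was called by edgeR or DESeq2, with 2 lower at an unadjusted p under 0.05. Pth1r, a parietal endoderm receptor, rose at 0.53 ± 0.10 (adjusted p = 0.189 without the third pair). Of 7 tested visceral endoderm genes 1 rose (14.3%), Spink1 at 0.53 ± 0.15 (adjusted p = 0.282 without the third pair). In a list of 19 tested genes of FGF and PDGF ligands, receptors and ERK feedback 4 rose (21.1%, beside 11.4% called over all tested genes). These were the phosphatase Dusp6 (0.94 ± 0.18), the FGF ligands Fgf3 (0.69) and Fgf10 (0.73) and the PDGF ligand Pdgfa (0.98). Without the third pair their adjusted p-values were 0.0528 to 0.272.

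Some stress genes rose. Over all tested genes 11.4% were called and 7.67% rose. Of 16 genes of the integrated stress response 5 rose (31.2%), Nupr1, Chac1, Trib3, Asns and Slc3a2, by 0.29 to 1.00 on the log2 scale. Of 8 heat shock genes 3 rose (37.5%), Bag3 (0.58), Dnajb1 (0.38) and Hspd1 (0.35). None of these 8 risen genes was called without the third pair, and DESeq2 called 1. None of 6 tested NRF2 target genes was called by edgeR or DESeq2 or reached an unadjusted p under 0.05. Chac1 illustrates the spread between replicates, with 19.4, 1.5 and 2.55 CPM with STM2457 and 10.3, 0.723 and 1.4 CPM with DMSO: replicate 1 was far above the others in both groups. None of 16 unfolded protein response genes and none of 18 cytosolic tRNA synthetases was called by edgeR or DESeq2; at an unadjusted p under 0.05, 2 were higher and 3 lower in the first list and 3 lower in the second, and 1 synthetase was called without the first pair.

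Further genes stood among the 15 largest rises. Col20a1, a collagen, had 32.8, 33.2 and 44.4 CPM with STM2457, against 9.42, 9.25 and 13.1 CPM with DMSO (1.80 ± 0.13, adjusted p = 2.03e-06). Plekho1 (1.50 ± 0.19), Aunip, a binding partner of Aurora A (1.49 ± 0.21), Fkbpl (1.44 ± 0.19) and Ccdc89 (1.44 ± 0.28) rose at low levels, and Ccdc89 lost its call without the third pair (adjusted p = 0.0815). Gm42528, an unclassified transcript of chromosome 5 that was chosen after its values were seen, had the smallest adjusted p of all genes. It had 139, 118 and 151 CPM with STM2457 and 17.3, 18.8 and 16.3 CPM with DMSO, 7.79-fold higher (adjusted p = 2.2e-09).

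Among the 15 largest falls, Mybpc3, a sarcomere protein, had 71.7, 27.7 and 78.6 CPM with STM2457, against 159, 55.2 and 195 CPM with DMSO. Its levels differed between replicates in both groups while each pair fell (-1.16 ± 0.10, adjusted p = 9.96e-06). Txnip, an inhibitor of glucose uptake, had 35.7, 62 and 54.1 CPM with STM2457 and 65.7, 92.2 and 114 CPM with DMSO, with no overlap (-0.84 ± 0.11, adjusted p = 0.000343). Mipol1 fell at -1.26 ± 0.22 from a low level. Capg, an actin-capping protein (-1.04 ± 0.22), Dqx1 (-1.07), Abat (-0.99), Ankrd1 (-0.98), Alpk3 (-0.84), Onecut2 (-0.81), Esyt3 (-0.81) and the X-linked Taf9b (-0.88) also fell. Each of these lost its call in at least 1 fit without a pair, Capg without the first (adjusted p = 0.0551) and the others without the third (0.0665 to 0.414).

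On the X chromosome, Xist, the RNA that coats and silences one X in female cells, had 743, 911 and 912 CPM with STM2457, against 819, 1796 and 1255 CPM with DMSO. The groups overlapped. The pair differences were -0.14, -0.98 and -0.46. The log2 fold change was -0.53 ± 0.14 (adjusted p = 0.0256). The call was lost without the second pair (adjusted p = 0.0611) and without the third (0.189). Tsix, transcribed across Xist from the other strand, had 3.17, 2.08 and 1.27 CPM with STM2457 and 2.67, 4.05 and 2.68 CPM with DMSO (-0.54 ± 0.33, adjusted p = 0.321). The sources used here do not say how featureCounts treated strand, so reads of these overlapping genes may not have been told apart. Chic1, a neighbour in the same region, fell at -0.56 ± 0.12 (adjusted p = 0.0093, or 0.0927 without the third pair). None of 14 factors that Xist needs for silencing was called by edgeR or DESeq2, with 2 lower at an unadjusted p under 0.05. Of 9 genes that escape inactivation Utp14a rose (11.1%, beside 11.4% called over all tested genes). Utp14a had 0.44 ± 0.10, or adjusted p = 0.185 without the third pair. Of the 9, 2 were called without the first pair and 2 without the second.

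Of 392 tested X-linked protein-coding genes 18 rose and 19 fell, with a median log2 fold change of -0.0652. Of 10788 autosomal ones 960 rose and 453 fell, with a median of 0.00613. X-linked genes took 2.12%, 2.12% and 2.10% of all counts in STM2457 libraries, against 2.21%, 2.19% and 2.24% in DMSO libraries, without overlap. The exact two-sided permutation p of this share was 0.1 over group labels and 0.25 within pairs, each the smallest that 3 pairs allow. Xist is itself X-linked and averaged 855 CPM with STM2457 and 1290 CPM with DMSO. Its part in the lower share was not tested, so the share need not describe the chromosome as a whole. The mean log2 CPM of X-linked minus autosomal genes was lower by 0.0743 with STM2457, lower in all 3 pairs (exact p = 0.2 over labels, 0.25 within pairs). Beyond Nsdhl and Ebp, the largest X-linked rises were Rab9 (0.92 ± 0.12), a GTPase of late endosomes, Tbc1d25 (0.81 ± 0.15) and F8a (0.70 ± 0.21). The largest falls besides Taf9b were Ap1s2 (-0.65), Smim10l2a (-0.63), Bhlhb9 (-0.59) and Xlr3a (-0.58 ± 0.10). Without the third pair F8a, Ap1s2, Smim10l2a and Bhlhb9 were not called (adjusted p = 0.133, 0.0547, 0.111 and 0.0764).

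The genes that rose and those that fell differed in structure. Structures were taken from the longest annotated transcript of 11194 tested protein-coding genes. Genes that rose (978) had a median of 5 exons, genes that fell (472) 12, and all tested genes 9. Up to 3 exons were found in 30.9% of risen genes and 3.6% of fallen genes, beside 12.7% of all. Exon junctions per kilobase of transcript had medians of 1.55 in risen genes, 3.38 in fallen genes and 2.85 in all. The 4-base sequence GGAC, part of the usual m6A consensus, had medians of 4.66 per kilobase in risen genes, 3.51 in fallen genes and 4.1 in all. These are descriptions over genes, which are not independent replicates.

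The median log2 fold change was 0.19 in genes of 1 exon, 0.28 in those of 2, 0.14 in those of 3 to 4, 0.02 in those of 5 to 8, -0.03 in those of 9 to 16 and -0.08 in those of 17 or more. The share that rose was 26.8% in genes of 2 exons and 3.73% in genes of 17 or more. The second pair showed the widest span, from 0.338 at 2 exons to -0.141 at 17 or more, and the first pair the narrowest, from 0.264 to -0.00832 in the same classes. Within each quartile of mean level, genes of 1 to 4 exons had a higher median (0.0972 to 0.205) than genes of 5 or more (-0.0536 to -0.00217). Within quartiles of the longest exon the corresponding medians were 0.0992 to 0.203 and -0.0428 to -0.0208. Leaving out the sterol, fatty acid and interferon lists changed neither median exon number.

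The same contrast could be read in each library. The mean log2 CPM of the quartile of genes with fewest junctions per kilobase, minus that of the quartile with most, was -0.55, -0.554 and -0.523 in STM2457 libraries, against -0.774, -0.734 and -0.743 in DMSO libraries. The group means differed by 0.208, with SDs of 0.0167 in STM2457 libraries and 0.0212 in DMSO libraries (n = 3 each), and the groups did not overlap. The exact two-sided p was 0.1 over labels and 0.25 within pairs, the smallest possible. Other structure contrasts did not separate the groups. By longest exon, the top minus the bottom quartile differed by 0.0478, higher in 2 of 3 pairs (exact p = 0.7 over labels, 0.75 within pairs). Single-exon minus multi-exon genes differed by 0.173, higher in all 3 pairs but with overlap (exact p = 0.3 over labels, 0.25 within pairs). Median log2 fold changes by quartile of longest exon lay between -0.0205 and 0.0221.

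**Figure D5:**
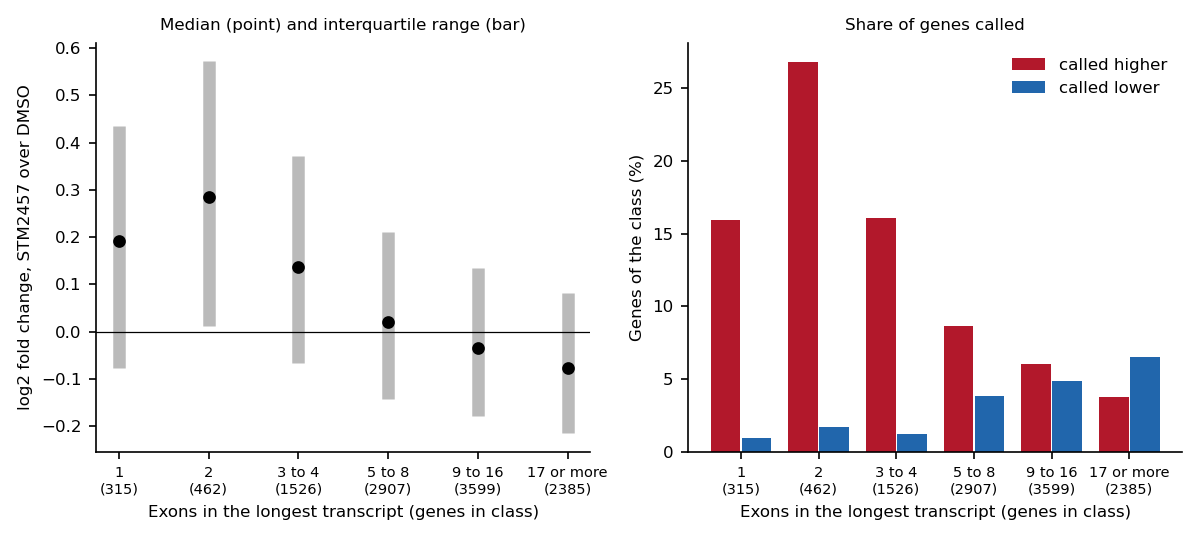
Left, log2 fold change of STM2457 over DMSO (vertical axis) by number of exons in the longest transcript (horizontal axis, genes per class in brackets); points are medians and grey bars the interquartile range. Right, share of each class called higher (red) and lower (blue); the median is highest at 2 exons (0.28), and below 0 from 9 exons on.

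The response of XEN cells was last set against the mean response of TSC and EpiSC in a model of all 14 libraries. Each TSC and EpiSC group held 2 libraries, of 17909934 to 21097380 counts, deeper than the XEN libraries. Without pairs, 1 of 18430 tested genes (0.00543%) differed between lines, D10Wsu102e, and 1155 had an unadjusted p under 0.05. With replicate number as a block within lines, 124 differed (0.673%), 54 with a higher value in XEN cells and 70 with a lower one. In that second fit the genes with a larger value in XEN cells included some sterol and fatty acid genes. Differences were 1.03 ± 0.12 for Ebp, 0.95 ± 0.18 for Tm7sf2, 0.93 ± 0.16 for Fads2, 0.80 ± 0.14 for Mvk and 0.75 ± 0.12 for Elovl6. Other sterol genes did not differ between lines in that fit, among them Msmo1, Dhcr7 and Cyp51 (adjusted p = 0.369, 0.118 and 0.564). In the fit without pairs, Msmo1, Dhcr7 and Cyp51 were also higher in the mean of TSC and EpiSC, by 1.23, 0.82 and 0.89 on the log2 scale. With pairs, Stat2 (0.67 ± 0.13) and Cbx2 (0.69 ± 0.16) also had a larger rise in XEN cells, and Mt1 (-0.79 ± 0.14), Impact (-0.52 ± 0.10) and Peg3 (-0.60 ± 0.12) a larger fall. Egr1, an immediate early gene, had opposite signs without pairs in XEN cells (-0.44) and in the mean of the others (0.70), a difference of -1.14 ± 0.45 (adjusted p = 0.758). With pairs the difference was -1.20 ± 0.14 (adjusted p = 3.34e-05). With pairs Ythdc1 also had a lower value in XEN cells than in the others (-0.39 ± 0.09, adjusted p = 0.0458).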

How the data were processed

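The members and gene lists were chosen with earlier results of these data known. Per the submitters' processing notes, reads passed through FastQC, Trim Galore, STAR and featureCounts (GRCm39); versions are not given in the sources used here. The authors deposited raw counts per gene, with no normalization. Here the 6 XEN libraries were fitted alone in edgeR 4.0.16 (R 4.3.3): filterByExpr (minimum count 10, minimum total 15), TMM scaling, robust quasi-likelihood test, replicate number as a block, Benjamini-Hochberg adjustment over all tested genes, two-sided. SEs were derived from each fold change and its F statistic. CPM uses TMM-adjusted totals; pair differences use log2 CPM with a prior count of 2. The fit was tested on simulated data. The pairing follows the replicate numbers of the labels, which do not say whether equal numbers mark a shared batch. Same-numbered libraries deviated together (correlations of 0.416, 0.578 and 0.581). Names, chromosomes and structures came from GENCODE M21 by Ensembl identifier; 3333 of 55416 identifiers had no symbol. Replicates differed by more than counting noise (chi-square per degree of freedom 10.26 to 26.84).

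Named were Mettl3, Xist and Tsix; the 15 largest called rises and falls whose higher group averaged 5 CPM or more and whose pairs all moved one way, leaving out predicted genes, pseudogenes, mitochondrially encoded genes and small RNA genes; up to 4 called members per list role; every writer, reader, eraser and sterol synthesis gene; and 5 X-linked genes per direction. Alternatives were no block, all 14 libraries, DESeq2 1.42.0, other scalings and filters, and leaving out replicates. Some genes that the rule covers are not reported here.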

Additional observations from a re-analysis of the deposited data

Results flagged for a closer look

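The treatment effect on D10Wsu102e in XEN cells differed from its mean effect in the other 2 lines by a test of the difference itself. It had 175, 186 and 218 CPM in STM2457 libraries of XEN cells, against 85.4, 114 and 99.1 CPM in DMSO libraries, with no overlap. In the model of all 14 libraries its log2 fold change was 0.95 in XEN cells and -0.07 as the mean of TSC and EpiSC, a difference of 1.02 ± 0.14 (adjusted p = 0.0412 in edgeR over 18430 genes). With replicate number as a block the difference was 1.02 ± 0.10 (adjusted p = 4.59e-06). Without the block no gene differed between lines with RLE scaling, or when XEN replicate 1 or 3 was left out, so the call was lost there.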

How the results depend on the processing

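The 1499 calls (1006 higher, 493 lower) rest on the pairing of libraries by replicate number. No replicate block gave 25 calls (24 and 1), and leaving out single libraries without it gave 2 without DMSO replicate 1, 1 without STM2457 replicate 1, 10 without DMSO replicate 2 and 2 each for the others, with 0 lower in all. Leaving out a pair under the block gave 236 to 1525 calls (210 to 945 higher, 26 to 580 lower), lowest without replicate 3. A fit of all 14 libraries gave 764 (566 and 198) without the block and 2447 (983 lower) with it, DESeq2 650 (479 and 171), ribosomal protein scaling 285 (225 and 60; median of all genes -0.0558) and a fold minimum of 1.2 gave 357. RLE and unscaled totals, other filters and non-robust dispersion stayed within 1.5 times. The difference between lines had 1 call, 124 with the replicate block, 0 with RLE and 0 to 5 without a pair of XEN libraries.

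Of the 152 named calls 47 held in all 12 alternatives with the block; 6 held without it; 104 were lost without replicate 3, 79 under ribosomal protein scaling and 50 with DESeq2. Called genes reversed only without the block and without 1 library: Ccnd2 (0.134 without DMSO replicate 2), Chac1 (-1.01) and Trib3 (-0.241), both without STM2457 replicate 1. Uncalled genes near 0 that changed sign were Mettl14 (-0.0153) and Alkbh5 (-0.00875) under ribosomal protein scaling; Fxr2 (0.000588 and 0.0694), Prrc2a (0.019), Igf2bp3 (0.151 and 0.267), Alkbh5 (-0.109 and -0.0685), Ythdf3 (-0.00528) and Fto (0.0687 and 0.0187) when a library was left out without the block; and Igf2bp2, at -0.0122 without the block, -0.0205 over 14 libraries, -0.0187 under that scaling, and -0.207, -0.248 and -0.141 with a library left out. Leaving out a pair gave ranges across 0 for Fxr2 (-0.195 to 0.00595), Igf2bp3 (-0.0953 to 0.0499), Igf2bp2 (-0.0314 to 0.147), Ythdf3 (-0.0496 to 0.252), Fto (-0.118 to 0.0363), the mitochondrial mRNA share (-0.0853 to 0.0412 percentage points) and the longest-exon contrast (-0.015 to 0.121). The cause of these changes was not tested. With 3 pairs, single values could not reach an exact p under 0.1. Low genes such as Ifit3b and Mt2 rest on few counts per library.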
